A study of Mus musculus with 48 samples.

Results

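The late response to interferon gamma (IFNγ, written IFNy in the labels) was followed in NMM cells, a melanoma line of the mouse whose NRAS is mutated, 24 h after the cytokine was added. Of the 48 libraries in the series, 5 entered this comparison, chosen from the labels alone. In 2 of them IFNγ was the single added cytokine, at 1 ng/ml and at 100 ng/ml. The 3 controls of the same duration were unstimulated cells, cells given 6000 U/ml IL-2 and cells given 2 ng/ml lymphotoxin A1 B2. All cells came from the same line, carried the NRAS mutation and grew in IMDM with foetal calf serum. The study asked how cytokines that CD8+ T cells release act on tumour cells, and sampled each stimulus once at 2, 6, 12 and 24 h. The labels give no replicates and do not say whether libraries came from separate cultures. The IFNγ arm therefore holds 2 doses and the control arm 3 different conditions, and p-values measure the spread between these libraries, which may be technical.

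IFNγ binds a receptor made of Ifngr1 and Ifngr2 chains, which activates the kinases Jak1 and Jak2. The signal reaches promoter elements called GAS and induces a first set of genes, among them the transcription factor Irf1. Irf1 and its relatives then act on further promoters, through elements called ISRE, and in many cells this leads to antigen presentation on MHC class I, chemokine release and slower growth.

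Counts per library ran from 7351928 to 8071145, and 1 count equalled 0.117 to 0.137 CPM (counts scaled to a common library size). Mitochondrial transcripts took 0.627% and 0.693% of the counts in the IFNγ libraries, against 0.836% to 0.964% in the controls. The melanoma label was checked against 10 markers, which summed to 583 to 599 CPM with IFNγ and 655 to 672 CPM in controls. The pigment cell genes Sox10, Mlana, Dct and Tyr were at 0 counts in all 5 libraries, and 6 of the 10 stayed under 10 counts throughout. Nearly all of the sum came from Gpnmb and Nras, so these markers alone do not identify the line as melanoma, and it is called NMM here. Markers of T and NK cells summed to 10.3 to 10.4 CPM in IFNγ libraries and 3.5 to 4.23 CPM in controls, with 10 of 15 at 0, among them Cd3e, Cd8a and Cd4, and most of the sum from the kinase Lck. Markers of macrophages summed to 45.1 to 51.3 CPM with IFNγ and 57.7 to 62.5 CPM in controls, with 7 of 12 at 0, among them Csf1r, Adgre1 and Lyz2. Most of this sum came from Cd14, with 258 and 318 counts with IFNγ and 400, 441 and 473 in controls. Mrc1 went the other way, with 41 and 44 counts with IFNγ and 17, 13 and 18 in controls. Cd68 held 29 and 26 counts with IFNγ and 31, 34 and 44 in controls. Markers of fibroblasts, of which 2 of 9 were at 0, summed to 32.2 to 34 CPM with IFNγ and 51.4 to 55 CPM in controls, and those of endothelium, of which 3 of 7 were at 0, to 6.07 to 6.58 CPM with IFNγ and 6.69 to 7.35 CPM in controls.

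After 24 h, IFNγ libraries had higher levels of interferon-inducible GTPases, chemokines, class I presentation genes and transcription factors of the interferon response, with Batf2, Apol6, Gbp10 and Cxcl9 among the largest increases. Lower levels were found for many matrix genes, for cholesterol synthesis and oxygen-regulated genes, with Megf10, Igfbp5, Vill and Tenm4 among the largest decreases. Of 11689 genes tested with edgeR's quasi-likelihood test, 2660 were higher with IFNγ (22.8%) and 2533 were lower (21.7%) at a Benjamini-Hochberg adjusted p under 0.05. A change of at least 2-fold was reached by 526 of the higher and 368 of the lower genes. The median log2 change of all genes tested was -0.0117. In cultures measured in bulk, fewer cells of a kind and less RNA per cell cannot be told apart.

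**Figure D1:**
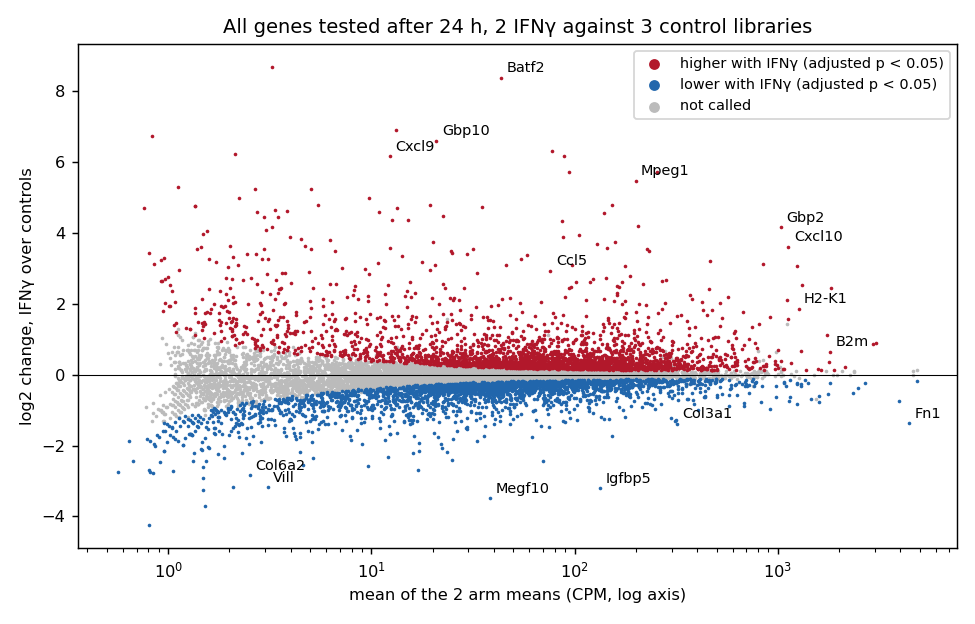
Each point is 1 of the 11689 genes tested, with the mean of the 2 arm means in CPM on a log axis and the log2 change of IFNγ over controls after 24 h. Red points were called higher (2660) and blue points lower (2533), and the largest changes are increases.

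Both doses gave similar levels for most genes. Of 10024 genes that reached 5 CPM at 1 of the doses or both, 12 were at least 2-fold higher at 100 ng/ml than at 1 ng/ml and 3 (Card10, 8430429K09Rik and Rpl31-ps8) were at least 2-fold lower. Of the control pairs, IL-2 against unstimulated had 4 such genes higher and 3 lower, lymphotoxin against unstimulated 8 higher and 1 lower, and lymphotoxin against IL-2 6 higher and 4 lower. The chemokine Cxcl9 was at 33.6 CPM at 100 ng/ml and 15.2 CPM at 1 ng/ml. The protease inhibitor Serpina3f was at 8.97 and 3.97 CPM, and Ido2, an enzyme related to the tryptophan-degrading Ido1, at 8.44 and 3.84 CPM in the same order. The early gene Fosb stood apart in the 100 ng/ml library at 148 CPM, against 54.3 CPM at 1 ng/ml and 43.4, 40.1 and 55.3 CPM in the unstimulated, IL-2 and lymphotoxin controls. Its arms did not separate and it was not called (adjusted p = 0.218). In what follows, the 2 values with IFNγ are those at 1 and 100 ng/ml, and the 3 control values are those of the unstimulated, IL-2 and lymphotoxin libraries.

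In the signalling pathway itself, 16 of 23 listed genes were higher with IFNγ after 24 h and 1 was lower, with a median log2 change of 0.90. The transcription factor Irf1 (chr11:53770014-53778374, plus strand) was at 355 and 502 CPM with IFNγ and 37.7, 38.1 and 39.3 CPM in controls. The arms were far apart, and the log2 change was 3.48 ± 0.21 (± here and below is an approximate standard error of the fit; adjusted p = 0.000893). Irf8, a factor better known from myeloid cells, was at 45.6 and 77.8 CPM with IFNγ against 23.8, 25.1 and 23.9 CPM in controls. Its arms did not overlap, but the 2 doses differed, and its change of 1.35 ± 0.30 was only just called (adjusted p = 0.0366). Without the unstimulated, the IL-2 or the lymphotoxin control the adjusted p of Irf8 became 0.139, 0.0982 and 0.133, and with no filter on low counts 0.08. Batf2 (chr19:6140983-6172476, plus strand), a factor of the AP-1 family, held 504 and 797 counts with IFNγ and 1, 2 and 3 counts in controls, or 69.1 and 105 CPM with IFNγ and 0.129, 0.249 and 0.35 CPM in controls. It was near absent without IFNγ and its log2 change, 8.38 ± 0.52, was among the largest measured (adjusted p = 0.000338). In the annotation Irf1 overlaps Gm17334, Irf8 overlaps Gm20388 and Batf2 overlaps Arl2, so part of their counts could belong to the neighbour.

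The feedback inhibitors of the pathway were also higher. Socs1 was at 12.1 and 22.3 CPM with IFNγ and 6.69, 6.1 and 5.02 CPM in controls (1.54 ± 0.28, adjusted p = 0.00212), and Socs3 at 41.4 and 61.5 CPM with IFNγ and 14.9, 13.7 and 12.7 CPM in controls (1.90 ± 0.19, adjusted p = 9.71e-05). Neither gene's arms overlapped. The kinase Jak2 changed by 1.12 ± 0.06 (adjusted p = 2.92e-13), while Jak1 was not called at 0.13 ± 0.05 (adjusted p = 0.0568). Of the receptor chains, Ifngr2 was the 1 lower gene of the list at -0.37 ± 0.11 (adjusted p = 0.00703, and not called without the 1 ng/ml library or with DESeq2). Ifngr1 was at 12.1 and 12.3 CPM with IFNγ and 15.8, 14.8 and 14.3 CPM in controls and was not called (adjusted p = 0.0666).

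The promoters of 4 genes of the response are shown as examples, chosen because each holds a match to an element through which this pathway or NF-κB is known to act. The 250 bases before each gene's start were taken from RefSeq's promoter table of build GRCm38.p6, in which 110 of 155 genes looked up had an entry. Windows of all 32851 promoters of the table were searched on both strands for TTCNNNGAA (GAS), GAAANNGAAA (ISRE) and GGGNNTTTCC (a form of the NF-κB site), where N is any base. Of them, 7.02% held the first, 2.98% the second and 1.41% the third. In the first listed window of the 110 genes, 13 held GAS, 13 ISRE and 9 the NF-κB form, and 79 held none, among them Cxcl9, Cx3cl1, Tap1, Psmb9 and H2-K1. GAS matches were also present in Trim30c and in Dcdc2a, a gene that fell. Capitals mark the matches. Irf1 (chr11:53769764-53770013, plus strand) held 1 GAS match and Irf8 (chr8:120736108-120736357, plus strand) 2. Cxcl10 (chr5:92348890-92349139, minus strand) held 1 ISRE match, and Il6 (chr5:30012864-30013113, plus strand) 1 match to the NF-κB form. Irf1 and Irf8 each have a second listed start, whose windows held none of the 3. A match describes the letters and is not evidence of binding.
Irf1: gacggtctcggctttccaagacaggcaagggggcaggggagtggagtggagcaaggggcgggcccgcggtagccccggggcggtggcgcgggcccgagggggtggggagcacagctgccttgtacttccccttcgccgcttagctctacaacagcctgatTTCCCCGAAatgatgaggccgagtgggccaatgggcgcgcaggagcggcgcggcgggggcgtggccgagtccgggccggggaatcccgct
Irf8: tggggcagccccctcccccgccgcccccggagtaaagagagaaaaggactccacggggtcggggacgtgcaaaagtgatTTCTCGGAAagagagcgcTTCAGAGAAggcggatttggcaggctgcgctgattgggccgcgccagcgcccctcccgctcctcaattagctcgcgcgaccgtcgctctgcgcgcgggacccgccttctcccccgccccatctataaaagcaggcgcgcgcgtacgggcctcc
Cxcl10: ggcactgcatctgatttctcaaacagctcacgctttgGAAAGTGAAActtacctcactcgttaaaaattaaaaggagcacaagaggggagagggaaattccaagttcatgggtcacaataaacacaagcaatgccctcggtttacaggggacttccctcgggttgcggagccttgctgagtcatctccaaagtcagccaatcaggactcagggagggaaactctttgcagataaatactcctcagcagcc
Il6: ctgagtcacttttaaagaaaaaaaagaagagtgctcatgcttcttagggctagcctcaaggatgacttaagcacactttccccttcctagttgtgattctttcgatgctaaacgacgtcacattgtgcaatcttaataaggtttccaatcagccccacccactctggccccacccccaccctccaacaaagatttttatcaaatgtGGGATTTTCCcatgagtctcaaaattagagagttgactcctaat

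Interferon-inducible GTPases, which attack the membranes around intracellular pathogens, were higher in all 22 members tested of 23 listed, with a median log2 change of 2.92. Gbp2 (chr3:142620602-142638008, plus strand), a guanylate-binding protein, was at 1714 and 2215 CPM with IFNγ and 109, 119 and 103 CPM in controls (4.15 ± 0.15, adjusted p = 5.17e-05). Gbp4 was at 395 and 601 CPM with IFNγ and 10.2, 8.34 and 9.8 CPM in controls (5.72 ± 0.32, adjusted p = 0.00107). For both, every IFNγ library lay far above every control. Gbp10 was at 31.9 and 50.8 CPM with IFNγ and 0.386, 0.498 and 0.35 CPM in controls (6.60 ± 0.40, adjusted p = 5.27e-06). Tgtp1, of the immunity-related GTPases, changed by 4.57 ± 0.09. Gbp11 held 28 and 50 counts with IFNγ and 1, 0 and 2 in controls, a ratio of 42.6 with a 95% interval of 14 to 211 that covers counting error only. The Gbp genes are close paralogs, Gbp4 overlaps Gbp8 and Gbp9 in the annotation, and Tgtp1 overlaps neighbours, so counts of single members are uncertain.

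Antigen presentation on MHC class I rose as a group, with 22 of 24 members higher and 0 lower (Canx and Pdia3 were not called), and a median log2 change of 1.98. The classical class I heavy chains were abundant: H2-K1 (chr17:33996017-34000333, minus strand) was at 1910.0 and 2065 CPM with IFNγ and 503, 573 and 558 CPM in controls (1.86 ± 0.05, adjusted p = 3.65e-17). H2-D1 was at 1595 and 1756 CPM with IFNγ and 542, 595 and 564 CPM in controls (1.56 ± 0.05, adjusted p = 2.17e-17). Both doses gave about the same level, more than any control. Their partner B2m, already high, was at 2205 and 2230.0 CPM with IFNγ and 1407, 1471 and 1365 CPM in controls, a smaller change of 0.65 ± 0.04 (adjusted p = 1.65e-11). The immunoproteasome subunits that cut peptides for class I changed by 2.46 ± 0.06 for Psmb8, 3.36 ± 0.10 for Psmb9 and 2.61 ± 0.08 for Psmb10. The peptide transporters Tap1 and Tap2 changed by 1.86 ± 0.06 and 2.47 ± 0.17, their partner tapasin (Tapbp) by 1.82 ± 0.10, and Nlrc5, the transactivator of class I genes, by 1.96 ± 0.11. Tap1 and Psmb9 overlap on opposite strands, and H2 genes are close paralogs, so the strand and multi-mapping settings of the counting, not given in the sources used here, could move reads between them.

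MHC class II was at low levels. Of its 15 genes in the table, 4 passed the filter on low counts, with the promoter factor Rfx5 higher (0.56), its partner Rfxank lower (-0.54; not called without the 100 ng/ml library or with the unstimulated library alone as control) and a median log2 change of 0.02. Ciita, the class II transactivator, held 1 and 5 counts with IFNγ and 2, 0 and 1 counts in controls after 24 h, too few to be tested there. After 6 h the IFNγ libraries had held 22 and 21 counts of it and the controls 0, 0 and 0.

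Of 32 chemokine and cytokine genes, 18 were tested, 16 were higher and 1 was lower, with a median log2 change of 2.69. Ligands of Cxcr3, the receptor that guides activated T cells, were prominent. Cxcl10 (chr5:92346638-92348889, minus strand, overlapping Art3) was at 1919 and 2255 CPM with IFNγ and 170.1, 178 and 166 CPM in controls (3.60 ± 0.06, adjusted p = 1.88e-18). Cxcl9 was at 15.2 and 33.6 CPM with IFNγ and 0.386, 0.124 and 0.467 CPM in controls (6.15 ± 0.85, adjusted p = 0.00885, and 0.0647 without the unstimulated and 0.0608 without the lymphotoxin control). The arms of both were far apart, although the 2 doses differed over 2-fold for Cxcl9. Cxcl11 was at 1.37 and 1.98 CPM with IFNγ and at 0 counts in the controls, at least 13.6-fold higher when 3 counts over the control group are taken as the floor.

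Chemokines of the CC family and several interleukin genes were higher too. Ccl5 was at 122 and 147 CPM with IFNγ and 15.1, 19.3 and 18.4 CPM in controls (2.93 ± 0.10, adjusted p = 5.28e-14), and Ccl4 at 22.9 and 28.9 CPM with IFNγ and 0.901, 0.872 and 1.17 CPM in controls (4.69 ± 0.21, adjusted p = 4.54e-15). The monocyte chemokine Ccl2 was at 216 and 315 CPM with IFNγ and 22.5, 22.4 and 21.5 CPM in controls (3.58 ± 0.24, adjusted p = 0.00123). Each of these was higher in both IFNγ libraries than in any control. Il6 changed by 4.37 ± 0.20, and Il15, which sustains T and NK cells, by 3.83 ± 0.30. Il18bp, which neutralises the cytokine IL-18, changed by 3.74 ± 0.16, though its gene overlaps Numa1 on the other strand. The 1 lower gene was Cx3cl1, the membrane-bound chemokine fractalkine, at 17 and 19.9 CPM with IFNγ and 32.6, 36.2 and 32.9 CPM in controls (-0.88 ± 0.11, adjusted p = 2.67e-07).

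Surface molecules that T cells meet moved in both directions. Of 23 listed checkpoint and adhesion genes, 11 were tested, 8 were higher and 1 was lower, with a median log2 change of 1.26. Cd274, which encodes PD-L1, was at 363 and 476 CPM with IFNγ and 35.3, 37.6 and 34.5 CPM in controls (3.55 ± 0.14, adjusted p = 1.42e-05). The adhesion molecule Vcam1 was at 12.2 and 14.2 CPM with IFNγ and 4.38, 4.23 and 4.32 CPM in controls (1.61 ± 0.17, adjusted p = 3.94e-08). Nt5e (CD73), the ectoenzyme that makes adenosine, was lower, at 26.9 and 28.8 CPM with IFNγ and 55.5, 54.9 and 52 CPM in controls (-0.96 ± 0.08, adjusted p = 1.23e-09).

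Antiviral genes of type I interferon and genes of cell death were mostly higher. Of 43 antiviral genes, 39 were higher and 4 lower, with a median log2 change of 1.12. Ifit2, which binds foreign RNA, was at 2155 and 2262 CPM with IFNγ and 268, 277 and 254 CPM in controls (3.05 ± 0.05), and Oasl1 changed by 2.68 ± 0.06. The 4 lower ones were Ifitm1, Ifitm2 and Ifitm3, membrane proteins that block virus entry, and Ifi27. Ifitm1 was at 42.1 and 38 CPM with IFNγ and 112, 113 and 105 CPM in controls (-1.46 ± 0.07, adjusted p = 3.99e-14), and Ifitm3, the most abundant, changed by -0.33 ± 0.05 (adjusted p = 4.85e-06). Among 32 tested cell death genes, 20 were higher and 2 lower, with a median log2 change of 0.50. The higher ones included the death ligand Tnfsf10 (TRAIL, 3.50 ± 0.16), the inflammatory caspases Casp4 (3.17 ± 0.19) and Casp1 (2.17 ± 0.19), the nucleic acid sensor Zbp1 (2.63 ± 0.06) and the executors of lytic death Mlkl (1.65 ± 0.05) and Gsdmd (1.65 ± 0.16). The 2 lower ones were the survival gene Bcl2, at 12.7 and 11.5 CPM with IFNγ and 24.3, 26.6 and 26.5 CPM in controls (-1.10 ± 0.12), and its antagonist Bmf (-1.65 ± 0.27).

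**Figure D2:**
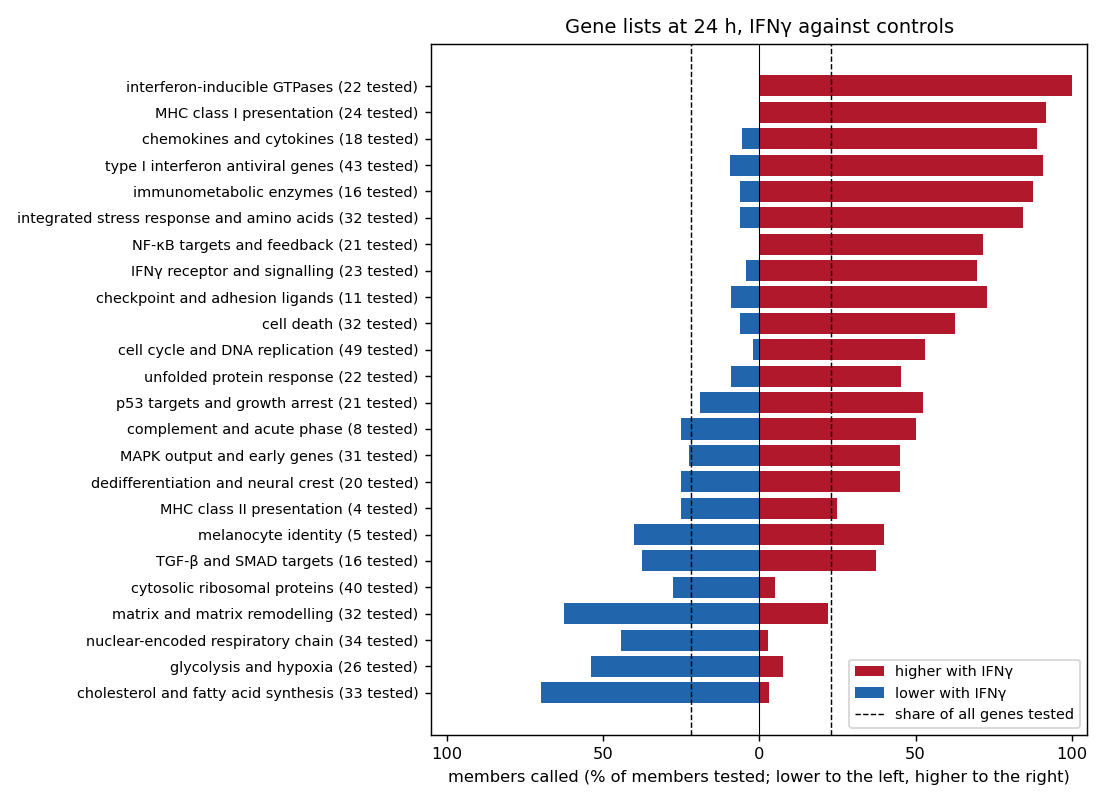
For each gene list, red bars give the percent of tested members called higher and blue bars the percent called lower with IFNγ after 24 h, and dashed lines the shares of all genes tested (22.8% and 21.7%). GTPases, class I presentation and antiviral genes lie at the top, and cholesterol synthesis, glycolysis with hypoxia and the respiratory chain at the bottom.

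The 15 largest increases also held genes outside these families. Serpina3f was at 29 and 68 counts with IFNγ and at 0 counts in all 3 controls, at least 53-fold higher against the floor of 3 counts over the control group. Apol6, an apolipoprotein L gene that overlaps Mb on the other strand, changed by 6.89 ± 0.69. Mpeg1 (chr19:12460779-12465284, plus strand), which encodes the pore-forming protein perforin-2, was at 354 and 426 CPM with IFNγ and 8.49, 9.84 and 8.05 CPM in controls (5.47 ± 0.10, adjusted p = 2.29e-16). Acod1, the enzyme that makes itaconate, was at 28.8 and 45.9 CPM with IFNγ and 1.54, 0.996 and 1.52 CPM in controls (4.77 ± 0.32, adjusted p = 9.86e-06). The complement gene C4b was at 9.59 and 10.0 CPM with IFNγ and 0.129, 0.374 and 0.233 CPM in controls (5.23 ± 0.34, adjusted p = 6.41e-12). Arms that do not overlap were a condition for entering these 15. The rest were Trim30c (4.99 ± 0.25), the glucose transporter Slc2a6 (4.59 ± 0.51), Slfn4 (4.58 ± 0.24) and a gene that has only a clone name (4.61), beside the chemokine, GTPase and Batf2 genes given above. Serpina3f, Slfn4 and Trim30c belong to families of close copies, so their counts are uncertain.

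**Figure D3:**
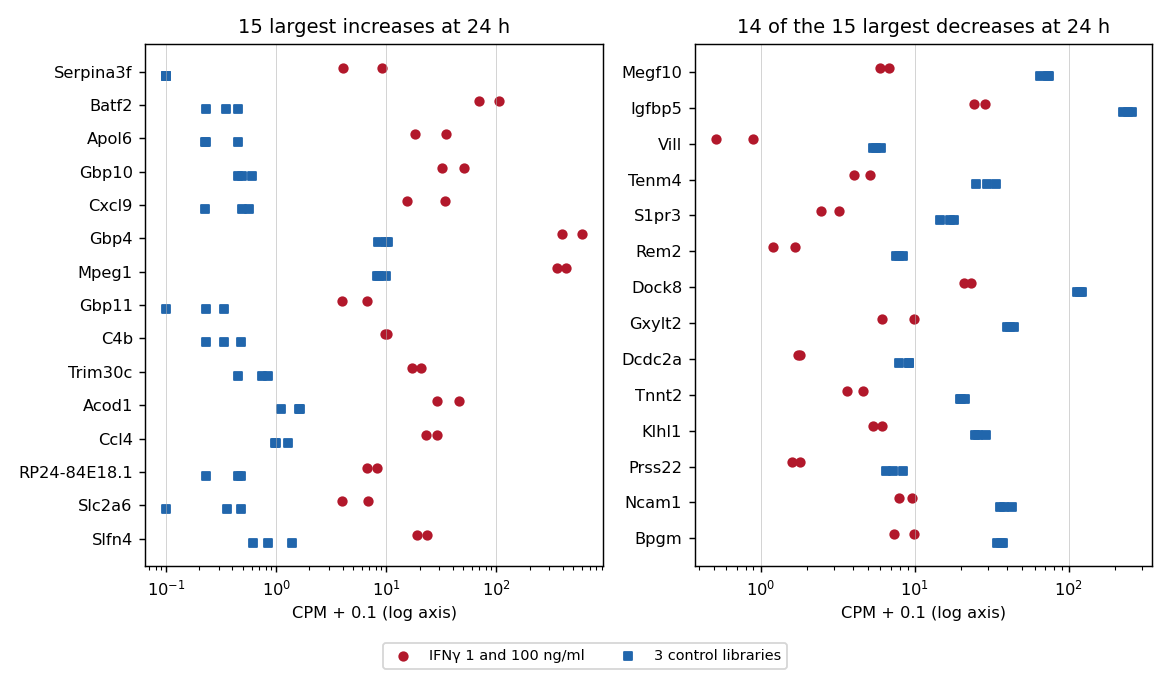
The 15 largest increases and 14 of the 15 largest decreases after 24 h are shown with 1 point per library, as CPM plus 0.1 on a log axis. Red circles are the 2 IFNγ libraries and blue squares the 3 controls, and the arms stand apart in every row because the choice of genes required it.

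The 15 largest decreases held genes of varied function. Megf10 (chr18:57133090-57297467, plus strand), an engulfment receptor, was at 5.89 and 6.73 CPM with IFNγ and 64.6, 74 and 73.6 CPM in controls (-3.49 ± 0.12, adjusted p = 2.3e-17). Igfbp5 (chr1:72857932-72874884, minus strand), which binds insulin-like growth factors, was at 28.5 and 24.1 CPM with IFNγ and 256, 242 and 225 CPM in controls (-3.20 ± 0.08, adjusted p = 1.23e-19). Dock8, an exchange factor for the GTPase Cdc42, was at 23 and 20.7 CPM with IFNγ and 112, 119 and 122 CPM in controls (-2.43 ± 0.08, adjusted p = 1.89e-17). All 3 were several-fold lower at both doses than in every control. The teneurin Tenm4 changed by -2.70 ± 0.17, the sphingosine phosphate receptor S1pr3 by -2.57 ± 0.20 and the neural adhesion molecule Ncam1 by -2.17 ± 0.13. Others were Gxylt2, which adds xylose to Notch (-2.41 ± 0.14), the calcium channel regulator Rem2 (-2.54 ± 0.27), the serine protease Prss22 (-2.17 ± 0.27) and Bpgm, the mutase that makes bisphosphoglycerate (-2.08 ± 0.13). Vill (-3.18 ± 0.36), Dcdc2a (-2.36 ± 0.25), Tnnt2 (-2.32 ± 0.16) and Klhl1 (-2.22 ± 0.15) were also among the 15.

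Of 40 listed matrix genes, 32 were tested, 20 were lower and 7 higher, with a median log2 change of -0.59. The 7 higher were near the share of all genes tested that were higher (22.8%), and the 20 lower were above the share that were lower (21.7%). Fibronectin (Fn1) was at 2551 and 2416 CPM with IFNγ and 6017, 6317 and 6774 CPM in controls (-1.36 ± 0.05, adjusted p = 6.85e-16). The fibrillar collagen Col3a1 was at 185 and 167 CPM with IFNγ and 460.2, 482 and 437 CPM in controls (-1.39 ± 0.06, adjusted p = 6.34e-16). In both, the lowest control was over 2-fold above the highest IFNγ library. The chains of collagen VI went apart: Col6a1 and Col6a2 fell (-1.84 ± 0.17 and -2.84 ± 0.38), while Col6a3, at 3.97 and 5.67 CPM with IFNγ and 1.03, 0.996 and 0.817 CPM in controls, rose (2.33 ± 0.33). The proteoglycan decorin (Dcn), also a fibroblast marker, fell by 1.74 on the log2 scale. The other 3 tested fibroblast markers, Pdgfra, Pdgfrb and Fap, were not called, Thy1 and Lum were at 0, and the part of other cells in the matrix result was not tested. Tenascin C (Tnc, 0.87 ± 0.05) was among the 7 higher.

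Many lipid and oxygen-related genes were lower. Of 33 genes of cholesterol and fatty acid synthesis, 23 were lower and 1 higher, with a median log2 change of -0.43. Without the 100 ng/ml library 0 were higher, and without the unstimulated control 2. Mvd, which acts late in the mevalonate pathway, was at 15.8 and 13.2 CPM with IFNγ and 34, 33.6 and 32.4 CPM in controls (-1.21 ± 0.11, adjusted p = 2.19e-09). The desaturase Scd2 changed by -0.97 ± 0.05. Among 26 genes of glycolysis and hypoxia, 14 were lower and 2 higher (the kinases Hk2 and Pfkp), with a median log2 change of -0.19. Without the 100 ng/ml library 8 were lower. The angiogenic factor Vegfa was at 191 and 169 CPM with IFNγ and 398, 436 and 417 CPM in controls (-1.21 ± 0.06), and the oxygen sensor Egln3 changed by -1.46 ± 0.09. Of 34 nuclear genes of the respiratory chain, 15 were lower and 1 higher (cytochrome c, Cycs), with a median log2 change of -0.16 and the largest decrease in Ndufa4 (-0.99 ± 0.08). Without the 1 ng/ml library, without the 100 ng/ml library or with DESeq2, 9 of the 34 were lower. The share of mitochondrial transcripts was lower in the same libraries, as given above, and its relation to these genes was not tested.

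Amino acid and stress genes were mostly higher. Of 32 tested genes that respond to amino acid shortage and related stress (the integrated stress response), 27 were higher and 2 lower (Ddit4 and Slc38a2), with a median log2 change of 0.61. The stress factor Ddit3 (CHOP) was at 53.5 and 58.3 CPM with IFNγ and 17.2, 18.7 and 21.9 CPM in controls (1.53 ± 0.10, adjusted p = 3.23e-12). Trib3, a pseudokinase induced with it, was at 45.4 and 48.3 CPM with IFNγ and 15.7, 14.2 and 14.2 CPM in controls (1.67 ± 0.10, adjusted p = 6.49e-13). In both genes the IFNγ libraries lay more than 2-fold above the controls. Atf4, which drives many of these genes, changed by 0.52 ± 0.05, the asparagine synthetase Asns by 0.73 ± 0.06 and the cystine transporter Slc7a11 by 0.87 ± 0.06.

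Growth genes did not fall together. Of 49 cell cycle and replication genes, 26 were higher and 1, Cdk4, was lower, with a median log2 change of 0.17. Without the 1 ng/ml library, or with the unstimulated library alone as control, 2 were lower. Cyclin E1 (Ccne1) was at 70.7 and 82.5 CPM with IFNγ and 27.4, 24.3 and 26.4 CPM in controls (1.56 ± 0.09, adjusted p = 2.4e-13). The proliferation marker Mki67 was at 353 and 356 CPM with IFNγ and 338, 316 and 410.1 CPM in controls, and its arms overlapped (adjusted p = 0.984). Of 21 tested p53 targets and arrest genes, 11 were higher and 4 lower, with a median log2 change of 0.23. The lower ones were near the share of all genes tested that were lower (21.7%). The 4 lower ones were the DNA damage gene Gadd45a (-1.93 ± 0.14), the telomerase gene Tert, Rb1 and Cdkn1b, and without the 100 ng/ml library 2 were lower.

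Of 21 tested NF-κB genes, 15 were higher and 0 lower, with a median log2 change of 0.43; the IκB family members Bcl3 and Nfkbiz changed by 1.09 and 0.97. Of 16 tested immunometabolic enzymes, 14 were higher and 1 lower, with a median of 0.95. Among them the sterol hydroxylase Ch25h changed by 2.26 ± 0.43, the tryptophan tRNA synthetase Wars by 1.35 ± 0.17 and the retinaldehyde dehydrogenase Aldh1a3, the lower one, by -2.42 ± 0.46. Of 8 tested complement and acute phase genes, 4 were higher (Serpina3f, C4b, the protease C1s1 at 2.95 ± 0.57 and the granzyme inhibitor Serpinb9 at 1.50 ± 0.17) and 2 lower (ceruloplasmin, Cp, and the complement inhibitor Cd59a at -2.09 ± 0.49), with a median of 0.91.

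Of 31 genes of MAPK output and early response, 14 were higher and 7 lower, with a median of 0.27. Over all genes tested, 22.8% were higher and 21.7% lower. Some counts in this paragraph lie near those shares, among them the 7 lower genes here. The stress factor Atf3 changed by 2.11 ± 0.12 and Spry1, a feedback inhibitor of the pathway that NRAS drives, by -1.73 ± 0.11. Of 16 tested TGF-β genes, 6 were higher, among them the activin antagonist follistatin (Fst, 2.69 ± 0.22), and 6 lower, with a median of -0.15. Of 20 tested genes of dedifferentiation and neural crest, 9 were higher and 5 lower, with a median of 0.11, and with the unstimulated library alone as control 2 were lower. Of 23 genes of melanocyte identity, 5 were tested, 2 were higher (Mitf and Pax3) and 2 lower (Gpnmb and Rab27a), with a median of -0.03. The call of Rab27a was lost in 3 of 10 alternative settings, among them without the 1 ng/ml library (adjusted p = 0.267). That of Mitf, the master regulator of pigment cells, was lost in 2, among them without the 100 ng/ml library (adjusted p = 0.106). That of Gpnmb was small, and without the IL-2 control 1 gene of the list was lower. With the unstimulated library alone as control 0 were lower and the median was 0.28. Of 22 genes of the unfolded protein response, 10 were higher, among them the chaperone Hspa5 (0.67 ± 0.05), and 2 lower (Sec61b and Ern1), with a median of 0.12. With the unstimulated library alone as control, 5 were higher. Of 40 cytosolic ribosomal proteins, 2 were higher and 11 lower, with a median of -0.06. Without the 1 ng/ml or without the 100 ng/ml library, 6 ribosomal proteins were lower, and without the unstimulated or without the 100 ng/ml library 1 was higher.

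Whether the response at 24 h differed from that at earlier times was tested in a fit of 20 libraries, the same 5 stimuli at 2, 6, 12 and 24 h, each time with its own 3 controls. The change with IFNγ at 24 h was higher than at 2 h in 1758 of 12118 genes (14.5%) and lower in 1654 (13.6%). Against 6 h it was higher in 1120 (9.24%) and lower in 1298 (10.7%), and against 12 h in 232 (1.91%) and 226 (1.86%). The 458 differences against 12 h became 159 without the 100 ng/ml libraries and 252 without the unstimulated ones. Without the 100 ng/ml libraries the count against 6 h was 1257 in place of 2418.

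Several chemokines and cytokines changed late. Of the 19 listed genes tested here, 10 had a larger change at 24 h than at 2 h and 1 a smaller one. Log2 changes of Ccl5 at 2, 6, 12 and 24 h were 0.03, -0.05, 1.54 and 2.93, and the difference between 24 h and 2 h was 2.90 ± 0.19 (adjusted p = 5.87e-16). In the IFNγ libraries Ccl5 was at 12.3 and 9.75 CPM after 6 h, close to the 12.1, 10.9 and 11.6 CPM of the controls. After 12 h it was at 78 and 69.9 CPM with IFNγ and 24.7, 28.6 and 22.6 CPM in controls. Il6 followed with 0.55, 1.49, 3.15 and 4.36 (24 h minus 2 h 3.81 ± 0.42, adjusted p = 1.05e-09), Ccl4 with 0.52, 1.32, 3.20 and 4.69 (4.17 ± 0.78, adjusted p = 4.93e-05) and Ccl2 with 1.54, 2.37, 3.24 and 3.58 (2.04 ± 0.24, adjusted p = 2.43e-05). Il6 in the IFNγ libraries was at 4.49 and 2.6 CPM after 6 h and 25.7 and 33.5 CPM after 12 h, against 1.61, 1.21 and 0.998 and 3.01, 3.87 and 3.08 CPM in the controls of those times. After 24 h it was at 23.02 and 25.06 CPM with IFNγ and 1.158, 1.37 and 0.9333 CPM in controls. Ccl4 was at 23.31 and 24.85 CPM after 12 h of IFNγ and 1.586, 3.871 and 2.343 CPM in the controls of that time. Between 12 h and 24 h the controls of both genes thus fell, while the IFNγ level of Il6 was not higher and that of Ccl4 moved little. Outside this list, Sprr1a, a protein of the cornified envelope, came late too, with 0.43, 0.03, 1.80 and 3.53 (24 h minus 6 h 3.49 ± 0.21, adjusted p = 1.98e-17).

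**Figure D4:**
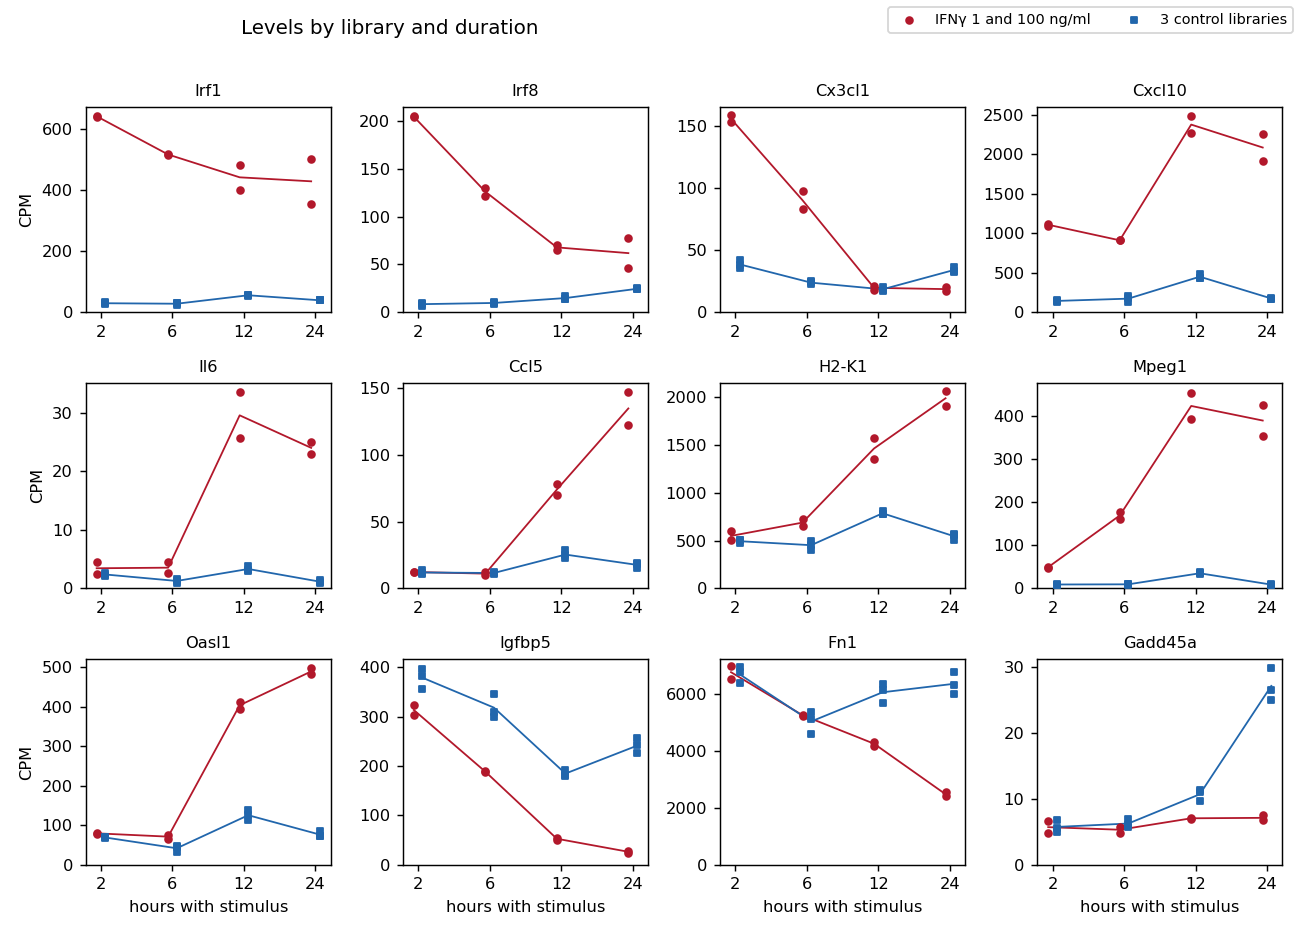
Each panel gives 1 gene in CPM on a linear axis from 0, at 2, 6, 12 and 24 h. Red circles are the 2 IFNγ libraries and blue squares the 3 controls, and lines join the arm means. With IFNγ, Irf1, Irf8 and Cx3cl1 are highest at 2 h and Ccl5, Il6 and Oasl1 are higher at 12 and 24 h than at 2 and 6 h, while Gadd45a at 24 h is high in the controls.

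The class I response was larger at 24 h. Its median log2 change was 0.79 at 2 h, 1.41 at 6 h, 1.40 at 12 h and 1.98 at 24 h, and 18 of 24 genes had a larger change at 24 h than at 2 h, with 1 smaller. H2-K1 changed by 0.15, 0.61, 0.89 and 1.86 at 2, 6, 12 and 24 h (24 h minus 2 h 1.71 ± 0.14, adjusted p = 8.57e-07), and H2-D1 by 0.10, 0.46, 0.72 and 1.56 (1.45 ± 0.12, adjusted p = 3.76e-07). The 1 smaller change was that of the transactivator Nlrc5, with 2.67, 2.30, 1.56 and 1.96 (-0.71 ± 0.16, adjusted p = 0.00376). Nlrc5 was at 329.8 and 373.4 CPM after 2 h and 320.4 and 397.9 CPM after 24 h of IFNγ. Its controls were at 55.85, 59.68 and 50.35 CPM after 2 h and 83.65, 93.64 and 98.12 CPM after 24 h. Between these times its controls thus rose while its IFNγ level moved little. The antiviral gene Oasl1 had the late course of 0.20, 0.77, 1.68 and 2.67 (2.48 ± 0.15, adjusted p = 5.79e-09).

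The controls moved as well. In the 3 controls, 23 of 24 class I genes, 21 of 22 GTPases and 39 of 43 antiviral genes had their highest mean level at 12 h. Over all 12118 genes tested this held for 20.5%. The control level of class I genes at 12 h exceeded that at 24 h by a median of 0.55 on the log2 scale, while the IFNγ level at 24 h exceeded that at 12 h by a median of 0.005. Thus Mpeg1, whose change at 24 h exceeded that at 12 h by 1.88 ± 0.18 (adjusted p = 7.23e-06), was at 354 and 426 CPM after 24 h and 393 and 456 CPM after 12 h of IFNγ. Its controls were at 8.49, 9.84 and 8.05 CPM after 24 h and 33, 37.8 and 34.7 CPM after 12 h. Ly6a (Sca-1), with a difference of 1.77 ± 0.16 (adjusted p = 1.66e-06), was at 349 and 432 CPM after 24 h and 277 and 279 CPM after 12 h of IFNγ, and at 21.4, 22.9 and 19.7 and 52.8, 53.9 and 48.2 CPM in the controls of those times. Of the 232 genes with a larger change at 24 h than at 12 h, the control mean moved further than the IFNγ mean in 170. Against 2 h this was so for 714 of 1758 genes and against 6 h for 477 of 1120. Among genes with a lower change at 24 h, the control mean moved further in 120 of 226 against 12 h. Against 6 h it did so in 532 of 1298 and against 2 h in 395 of 1654. Why the 12 h controls stood higher was not tested.

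**Figure D5:**
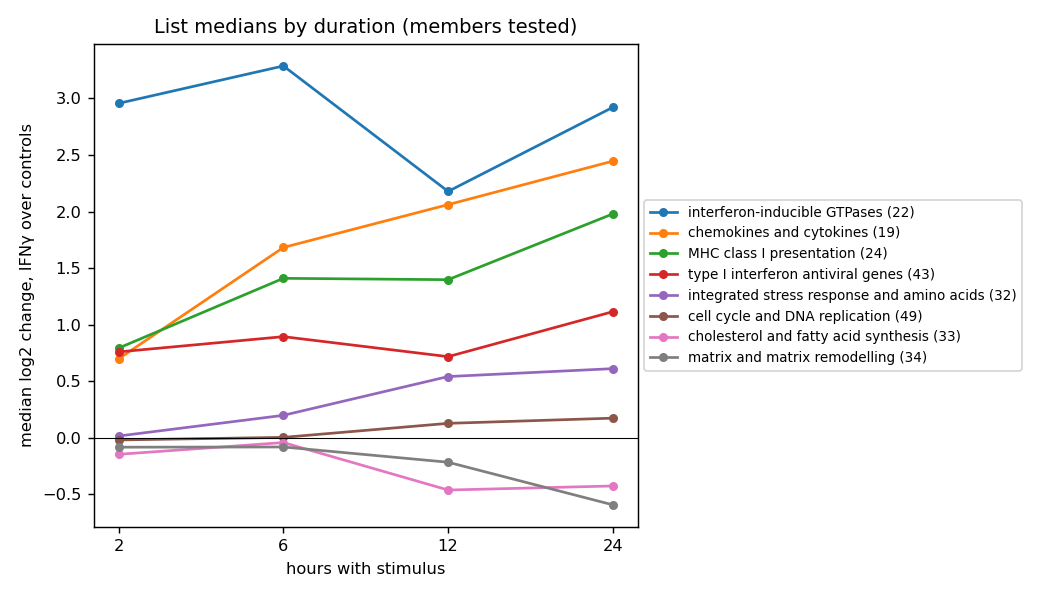
Lines give the median log2 change of IFNγ over controls for 8 gene lists at 2, 6, 12 and 24 h, with the number of members tested in brackets. Chemokines, class I presentation and the integrated stress response have their highest median at 24 h, matrix genes their lowest, and GTPases are at 2.96, 3.29, 2.18 and 2.92.

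Some early responses were smaller or reversed by 24 h. Irf8 changed by 4.64, 3.73, 2.20 and 1.34 at 2, 6, 12 and 24 h (24 h minus 2 h -3.30 ± 0.28, adjusted p = 5.33e-07). It was at 204 and 206 CPM with IFNγ and 6.76, 9.26 and 8.62 CPM in controls after 2 h, so that by 24 h the IFNγ level was lower and the control level higher. The change of Irf1 shrank less than that of Irf8 on the log2 scale, with 4.48, 4.26, 3.0 and 3.47 (-1.01 ± 0.22, adjusted p = 0.00432). With IFNγ, Irf1 was at 640.4 and 642.5 CPM after 2 h and 355 and 502 CPM after 24 h. The change of Cx3cl1 turned round, with 2.01, 1.93, 0.09 and -0.88 (-2.89 ± 0.13, adjusted p = 7.9e-22). After 2 h it was at 153 and 159 CPM with IFNγ and 41.9, 38.1 and 35.3 CPM in controls. After 12 h it was at 18.08 and 20.88 CPM with IFNγ and 17.44, 20.28 and 17.13 CPM in controls. After 24 h it was at 16.99 and 19.91 CPM with IFNγ and 32.56, 36.24 and 32.9 CPM in controls. Between 12 h and 24 h the controls thus rose while the IFNγ level moved little, and why they rose was not tested. The change of Nt5e also turned round, with 0.50, 0.38, -0.53 and -0.96 (-1.47 ± 0.12, adjusted p = 1.58e-13). So did that of Dennd3, an exchange factor for Rab GTPases, with 0.96, 0.79, -0.64 and -1.38 (-2.34 ± 0.35, adjusted p = 1.4e-06). In all, 82 genes were called higher at 2 h and lower at 24 h, and 117 lower at 2 h and higher at 24 h. A 2-fold change at both times was reached by Setbp1 and Sgk2 of the first kind and by Wnt10a of the second, named here after their values were seen. Between 12 h and 24 h such turns were made by 8 and 10 genes.

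Several of the largest decreases came late. Igfbp5 changed by -0.28, -0.75, -1.82 and -3.20 at 2, 6, 12 and 24 h (24 h minus 12 h -1.38 ± 0.12, adjusted p = 4.1e-10), and Megf10 by -0.41, -0.94, -2.81 and -3.49 (24 h minus 2 h -3.08 ± 0.15, adjusted p = 4.56e-21). Igfbp5 was at 302 and 324 CPM with IFNγ and 397, 382 and 356 CPM in controls after 2 h. Between 2 h and 24 h its level thus fell in both arms and further with IFNγ. The controls did not fall throughout, as the unstimulated one was at 181 CPM after 12 h, below its level after 24 h given above. Of 34 matrix genes, 19 had a lower change at 24 h than at 2 h, 21 than at 6 h and 16 than at 12 h. Fn1 had changes of 0.01, 0.06, -0.52 and -1.36 (24 h minus 2 h -1.37 ± 0.09, adjusted p = 5.78e-09), and its controls stayed between 4612 and 6960.0 CPM. Gadd45a was different. It was at 4.83 and 6.58 CPM after 2 h and 6.71 and 7.52 CPM after 24 h of IFNγ, while its controls were at 6.76, 5.52 and 4.93 CPM after 2 h and 25, 29.9 and 26.5 CPM after 24 h (24 h minus 12 h -1.33 ± 0.24, adjusted p = 0.000379). Selenop, a secreted selenium carrier that overlaps Ccdc152 on the other strand, changed by 0.02, 0.24, -0.16 and -1.36 (24 h minus 12 h -1.21 ± 0.18, adjusted p = 1.36e-05).

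Stress genes also had larger changes at 24 h than at 2 h. In the integrated stress list, median log2 changes were 0.01, 0.20, 0.54 and 0.61 at 2, 6, 12 and 24 h, and 24 of 32 genes had a larger change at 24 h than at 2 h. Trib3 changed by 0.44, 0.64, 1.02 and 1.67 (24 h minus 2 h 1.22 ± 0.17, adjusted p = 2.09e-07) and Ccne1 by -0.07, 0.18, 1.22 and 1.55 (1.63 ± 0.12, adjusted p = 2.53e-14). Of 49 cell cycle genes, 24 had a larger and 2 a smaller change at 24 h than at 2 h, and 2 a larger and 1 a smaller one than at 12 h. Cholesterol synthesis had medians of -0.15, -0.04, -0.46 and -0.43, and 0 of 33 members differed by call between 24 h and 12 h. Over all genes tested, the change at 24 h was higher than at 12 h in 1.91% and lower in 1.86%. The counts against 12 h in the cell cycle and cholesterol lists are near these shares and do not set either list apart.

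Other libraries of 24 h, 1 each and so without a test, allow these levels to be placed. At 0.01 ng/ml IFNγ, Cxcl10 was at 177 CPM, Igfbp5 at 227 CPM and Irf1 at 40.9 CPM, near the control levels given above. With 5000 U/ml IFNA1, a type I interferon, Cxcl10 was at 1097 CPM and H2-K1 at 1699 CPM, and Igfbp5 was at 253 CPM. With 10 ng/ml TNFa alone, Cxcl10 was at 2489 CPM, H2-K1 at 1633 CPM, Cxcl9 at 9.75 CPM and Ccl5 at 262 CPM. Igfbp5 was at 49.8 CPM with TNFa alone, also below the controls. With 100 ng/ml IFNγ and 10 ng/ml TNFa together, Cxcl9 was at 1446 CPM, Ccl5 at 2468 CPM and Igfbp5 at 5.36 CPM.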

How the data were processed

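RNA of NMM cells was sequenced with a stranded mRNA library kit (TruSeq) on a HiSeq 2500, per the labels' protocols, with 1 library for each of 12 stimuli at each of 4 durations. The authors deposited raw read counts per gene for the 48 libraries. Reads were aligned with HISAT to GRCm38, per the submitters' processing notes; the sources used here do not state versions, counting program, strand setting or annotation. Of 49671 genes in the table, 49412 carried an identifier of GENCODE M21, which was used for positions and overlaps.

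Libraries were grouped by their titles. The 5 libraries of 24 h were fitted with edgeR 4.0.16 (limma 3.58.1, R 4.3.3) by its robust quasi-likelihood F test with TMM factors, after filterByExpr (minimum count 10, total 15), with 3 residual degrees of freedom. The 20 libraries of the same stimuli at 4 durations were fitted with 1 mean per arm and duration (12 residual degrees of freedom), and the difference of the change between 24 h and each earlier duration was tested. P-values are two-sided and Benjamini-Hochberg adjusted over all genes tested, and calls are at 0.05. Standard errors are approximate, the absolute log2 change over the root of its F value. CPM values use TMM factors over all 48 libraries; intervals and floors (3 counts) cover counting error only. The code was tested on simulated counts with known changes.

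Alternatives were DESeq2 1.42.0, its size factors, no filter, other controls, the spread of 20 libraries, single libraries left out and a term per stimulus. Genes named are the 15 largest changes each way at 24 h among called genes with at least 2-fold change, 5 CPM in an arm and arms that do not overlap (predicted genes left out), some of the 10 largest called differences each way between times, and members of the gene lists. Other genes named were chosen after their values were seen. Some genes are not reported here. Members and lists were chosen with earlier results of these data known.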

Additional observations from a re-analysis of the deposited data

Results flagged for a closer look

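The change with IFNγ at 24 h differed from the change at an earlier time, by a test of the difference itself (the interaction term of the 20-library fit, edgeR's quasi-likelihood test, Benjamini-Hochberg adjusted), for the genes given here. Values are differences of log2 changes. No explanation of them was tested.

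Against 2 h, chemokine and cytokine genes differed by 3.81 (Il6), 4.17 (Ccl4), 2.90 (Ccl5) and 2.04 (Ccl2). Class I genes differed by 1.71 (H2-K1), 1.45 (H2-D1) and 3.71 (H2-Q7, adjusted p = 9.45e-05). Slfn4 differed by 4.30, C4b by 3.94, the surface protein Ly6c1 by 3.34 (adjusted p = 1.72e-07) and the antiviral Oasl1 by 2.48. Some of these differences rest on few counts after 2 h. There Slfn4 held 0 and 7 counts with IFNγ and 3, 2 and 2 in controls, and C4b 19 and 7 with IFNγ and 2, 6 and 5 in controls. H2-Q7 held 5 and 4 counts with IFNγ and 6, 4 and 3 in controls. H2-Q7, Slfn4 and Ly6c1 have close copies. Outside these families, Sprr1a differed by 3.10, the chloride channel protein Clic5 by 3.43 and the matrix protein Abi3bp by 4.37 (adjusted p = 0.000176). Log2 changes of Abi3bp at 2, 6, 12 and 24 h were -0.84, 1.80, 1.81 and 3.54, and its IFNγ libraries were at 5.62 and 5.28 CPM after 24 h, against 0.515, 0.498 and 0.35 CPM in controls. After 12 h it was at 6.66 and 4.97 CPM with IFNγ and 2.06, 1.55 and 1.32 CPM in controls, so between these times the controls fell. After 2 h Abi3bp held 1 and 3 counts with IFNγ and 4, 4 and 1 in controls, so its change there rests on few counts. Clic5 had changes of 1.02, 3.06, 4.27 and 4.45 at 2, 6, 12 and 24 h. Trib3 differed by 1.22 and Ccne1 by 1.63.

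Smaller or reversed at 24 h than at 2 h were the changes of Irf1 (-1.01), Irf8 (-3.30), Nlrc5 (-0.71), Cx3cl1 (-2.89), Nt5e (-1.47) and Dennd3 (-2.34). Among genes that were lower with IFNγ at 24 h, the change was also lower than at 2 h for Igfbp5 (-2.92), Megf10 (-3.08), Vill (-3.39), Tenm4 (-3.01) and Fn1 (-1.37). Igfbp5 and Megf10 already had negative changes at 2 h, as given above, while Fn1 was near unchanged then.

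Against 6 h, Ccl5 differed by 2.98, Sprr1a by 3.49, Cx3cl1 by -2.81 and the ubiquitin ligase Neurl3 by -2.22 (adjusted p = 5.55e-05). Log2 changes of Neurl3 at the 4 times were 1.27, 1.47, 0.58 and -0.75, and its own call at 24 h was lost in 7 of 10 alternative settings.

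Against 12 h, Mpeg1 differed by 1.88, Ly6a by 1.77, Sprr1a by 1.72, H2-K1 by 0.97, H2-Q6 by 1.81, Igfbp5 by -1.38, Gadd45a by -1.33 and Selenop by -1.21. H2-Q6 is a class I gene with close copies.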

How the results depend on the processing

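The 5193 genes called at 24 h became 3633 with DESeq2, 4132 with the unstimulated library alone as control, 3901 to 5117 with a single library left out and at most 5311 under the other settings. The 3412 differences between 24 h and 2 h ranged over 2383 to 3002 with a stimulus left out, the 2418 against 6 h over 1257 to 1991 and the 458 against 12 h over 159 to 407. DESeq2 gave 295 differences against 12 h. With no filter on low counts 545 differences were called against 12 h, of which 61.7% were higher, in place of 50.7%. The fit with a replicate block by stimulus gave 3519, 2546 and 585 differences. Libraries of a stimulus share only its name (correlation of their deviations between times -0.0416 to 0.182), so this is no paired design. Of 155 genes looked at across the settings, 13 changed their 24 h call in at least 1 of them, among them Irf8, Cxcl9, Ifngr2, Jak1, Mitf, Rab27a, Fosb and Neurl3. No called change of these genes turned its sign in any setting. Without the unstimulated libraries the split of differences turned, to 1402 higher and 1421 lower against 2 h and to 122 higher and 130 lower against 12 h. Causes of these shifts were not tested.

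With 1 library per stimulus and time, culture and stimulus cannot be told apart. At 7351928 to 8071145 counts a library, genes under the filter were not tested, among them 11 of 15 class II genes.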
